A study of Oryctolagus cuniculus with 6 samples.

Results

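First exons that share no base with any other first exon of their locus were compared between the skin of Prss53-/- rabbits and the skin of wild-type rabbits. They were chosen from the transcript events that the authors' files list as first exons, at loci with 2 or more of them over all libraries, and every first exon that overlapped another of the same locus was set aside. This left 8228 separate first exons at 3379 loci, out of 11776 first exons at the 4287 loci with 2 or more and 21924 first exons at 14435 loci in all. RNA was measured by sequencing in 3 libraries labelled Prss53-/- (knockout) and 3 labelled wild type, all from skin at 30 days of age. CRISPR/Cas9, a system that cuts a chosen DNA sequence, is given as the treatment of all 6 libraries, wild type included, and the kind of Prss53 allele is not described. Prss53 encodes a trypsin-like serine protease, and the series title names hair curvature and skeletal dysplasia. Whether the 3 libraries of a genotype are 3 animals is not stated, and the p-values here therefore refer to the spread among these libraries, which could be technical.

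A gene with alternative promoters can start transcription at separate places, and each start brings its own first exon, which is spliced to exons that the transcripts then share. The choice of first exon can change the 5' untranslated region or the start of the protein, and it often depends on cell type. In skin, TP63 is the known case: in mouse and human its upstream and internal promoters give proteins with different amino ends, and basal keratinocytes mainly use the internal promoter.

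Levels are the deposited FPKM, fragment numbers divided by transcript length and by library size. The share of a first exon is its FPKM divided by the summed first-exon FPKM of its locus, in percent. A first exon missing from a library is called not listed and counted as 0, and such a missing value can also be a failed assembly. No counts were given, so the depth is unknown, and whether reads were assigned by strand is not given either. In first-exon levels, log2(FPKM + 1), knockout replicate 3 was unlike the rest of its genotype, with correlations of 0.825 and 0.834 to replicates 1 and 2, against 0.880 between these 2 and 0.869 to 0.880 among wild-type libraries (Pearson, across first exons, which are not independent). Values without it are given beside some of the results only. Gene symbols could not be assigned (0 of 3057 Ensembl IDs matched the RefSeq gene table), so the Prss53 level, skin markers and markers of other cell types were not analysed here, and first exons are named by position, with no genome build attached. In bulk skin, fewer cells of a type and less RNA per cell cannot be told apart.

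Most of these loci were simple. Exactly 2 separate first exons were found at 1940 loci, 3 at 699, 4 at 212 and 5 or more at 181, with at most 11 at a single locus. A further 347 loci had 1 separate first exon beside overlapping ones. The separate first exons were short, with a median length of 211 bases and quartiles of 103 and 457 bases, against a median of 434 bases for the overlapping first exons and 228 bases at loci with a single first exon. Chromosome 13 held the most, 568, and 2103 (25.6%) lay on unplaced scaffolds. None lay on the mitochondrial chromosome.

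Neighbouring start sites were typically kilobases apart. Over 4849 pairs of neighbouring separate first exons, the distance between start sites had a median of 9507 bases, with quartiles of 1939 and 32486 bases, and ranged between 20 and 816093 bases. It was under 500 bases in 376 pairs (7.75%), 500 to 1000 bases in 406 (8.37%), 1000 to 10000 bases in 1686 (34.8%), 10000 to 100000 bases in 2053 (42.3%) and more in 328 (6.76%). The rule separates exons by a single base, so members just inside it were close: 322 (3.91%) had fewer than 100 bases between them and the next first exon, and the smallest gap was 0 bases. Just outside it, 687 of the 3548 overlapping first exons (19.4%) shared fewer than 100 bases with another.

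Position within the locus went with how regularly a first exon was listed. Of the 8228, 2604 (31.6%) were listed in all 6 libraries and 3051 (37.1%) in a single library. The most upstream first exons of a locus were listed in all 6 libraries in 46.0% of 3104 cases. For those between other first exons the figure was 19.8% of 1989, and for the most downstream 24.98% of 3135. In each library a smaller percentage of the tested separate first exons was listed than of the overlapping ones, with means of 63.0% and 67.1% over the 6 libraries (difference -4.09 ± 0.493 percentage points, SD, n = 6, lower in 6 of 6; exact sign-flip test, two-sided, p = 0.0312, the smallest it can give). The 6 libraries score the same fixed first exons, so this p describes the spread among libraries and is no test over first exons. In all 3 knockout libraries and no wild-type library 56 separate first exons were listed, and 73 in all 3 wild-type libraries and no knockout library, together 1.57% of the 8228. Among the 3548 overlapping first exons the counts were 36 and 34, together 1.97%, so the share was no higher among the separate ones.

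Some downstream first exons coincided with other parts of the same locus. An exon that other transcripts include or skip was overlapped by 226 of the most downstream first exons (7.21%), 94 of those in between (4.73%) and 1 of the most upstream. In 300 of these 321 cases the first exon and the internal exon ended at the same splice site. Internal exons not listed as included or skipped could not be matched, so these counts are minimum values. Of the separate first exons at loci with a listed last exon, 264 of 2874 most downstream (9.19%), 145 of 1833 in between (7.91%) and 8 of 2849 most upstream (0.281%) started beyond every last exon listed for the locus. A single last exon was listed at 2919 of the 3379 loci (86.4%), and 2 or more at 179 (5.30%), against 2 or more at 13.5% of the 10148 loci with a single first exon.

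Where a locus had exactly 2 first exons, both separate, the upstream one usually carried most of the signal, and its mean share overlapped between the genotypes. Of 1796 such loci, 1108 had at least 1 FPKM summed over first exons in every library. The upstream first exon had the higher share in all 6 libraries at 657 of them (59.3%), the downstream one at 243 (21.9%), and the lead varied between libraries at 208. The mean upstream share was 66.7%, 67.5% and 67.2% in knockout replicates 1, 2 and 3, against 67.1%, 67.5% and 66.8% in wild-type replicates 1, 2 and 3, so the genotypes overlapped. The difference was -0.0208 percentage points, with 67.1% ± 0.426 for knockout and 67.2% ± 0.327 for wild type (SD, n = 3 each; exact permutation test, two-sided, p = 1.0, the smallest possible being 0.1; adjusted over 3 measures 1.0). Without knockout replicate 3 it was -0.292.

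By distance, a description with no test, the mean upstream share was lowest for the closest start sites in both genotypes. With start sites under 500 bases apart (80 loci), the upstream first exon averaged 59.6% ± 1.58 in knockout and 59.8% ± 0.225 in wild type. Between 1000 and 5000 bases (269 loci) it averaged 64.7% ± 1.26 in knockout and 64.4% ± 0.820 in wild type, and between 20000 and 100000 bases (336 loci) 69.9% ± 0.885 in knockout, against 70.2% ± 0.0161 in wild type (SD, n = 3 each). Loci with start sites at least 100000 bases apart (80 loci) had the widest gap between genotypes, with 65.1%, 67.1% and 64.8% in the knockout libraries against 68.0%, 68.0% and 68.2% in wild type. There every knockout library lay below every wild-type library, a difference read off after the 6 distance classes had been seen and not tested. Both first exons were listed in all 6 libraries at 10% of the closest loci and 30.0% of the most distant.

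**Figure D1:**
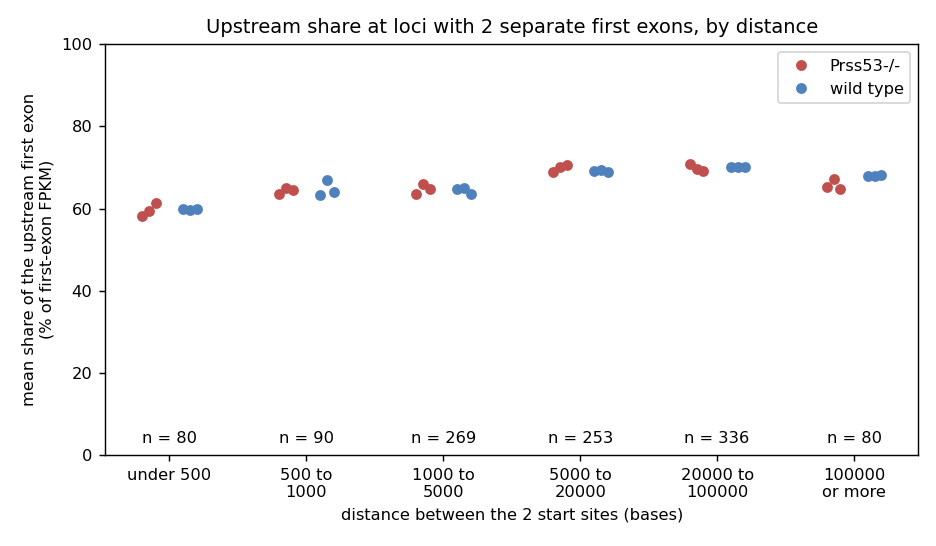
Mean share of the upstream first exon (vertical axis, percent of the first-exon FPKM of the locus) at loci with exactly 2 separate first exons, by distance between start sites (horizontal axis, bases), for Prss53-/- and wild type. Points are libraries and n is the number of loci; Prss53-/- averaged 59.6% in the closest class and 69.9% from 20000 to 100000 bases, and in the most distant class all 3 Prss53-/- points lie below the wild-type points.

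The number of first exons in use per locus was also close between genotypes. Over 2005 loci with 2 or more separate first exons and at least 1 FPKM in every library, 1.67, 1.68 and 1.70 separate first exons per locus were listed in the knockout libraries, against 1.66, 1.72 and 1.72 in wild type (1.68 ± 0.0156 and 1.70 ± 0.0335, SD, n = 3 each; exact permutation test, two-sided, p = 0.6, adjusted over 3 measures 0.9). Counting only first exons at 1 FPKM or more gave 1.41, 1.40 and 1.40 in knockout, against 1.42, 1.43 and 1.44 in wild type. By that count the genotypes did not overlap, and the difference of -0.0296 had p = 0.1 (exact permutation test, two-sided), the smallest 3 libraries against 3 can give, and 0.3 after adjustment over 3 measures.

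The leading first exon, the separate first exon with the highest share, was the same in all 6 libraries at 1345 of the 2005 loci (67.1%). It differed between a knockout and a wild-type library at 15.7% to 18.3% of loci (9 pairs, median 16.2%). Between knockout libraries it differed at 15.4% to 16.8% (3 pairs, median 16.5%), and between wild-type libraries at 14.8% to 15.5% (3 pairs, median 14.96%). Pairs of libraries with different genotypes thus differed about as often as knockout pairs did, and the highest values belonged to pairs with knockout replicate 3, which share that library. By mean share the leading first exon differed between genotypes at 224 loci (249 without knockout replicate 3). At 14 of the 224 all 3 libraries of each genotype had the same leading first exon; in knockout it lay downstream of the wild-type one at 9 and upstream at 5, with a median distance of 19000 bases.

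**Figure D2:**
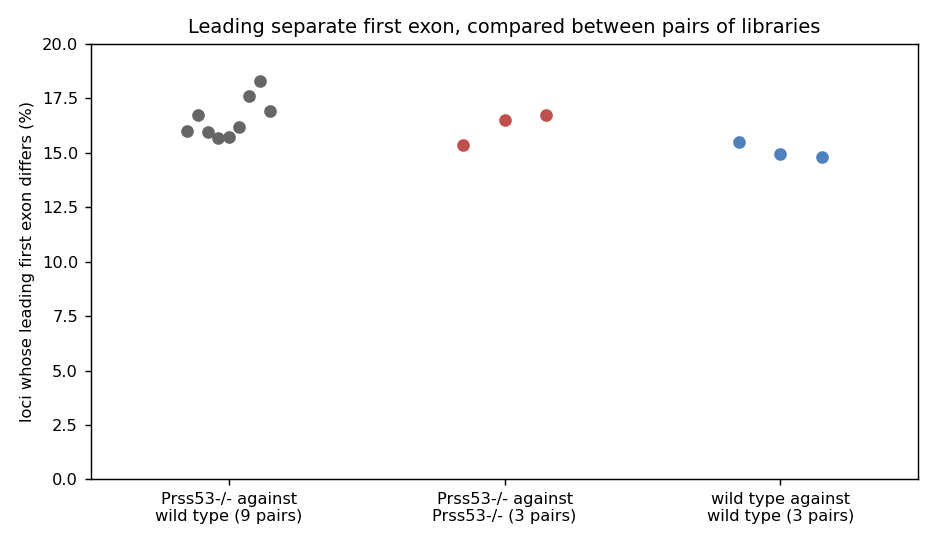
Percent of 2005 loci whose leading separate first exon differed between 2 libraries (vertical axis), for the 9 pairs of a Prss53-/- and a wild-type library, the 3 Prss53-/- pairs and the 3 wild-type pairs. Points are pairs; pairs across genotypes reached 18.3% and overlapped the Prss53-/- pairs, while wild-type pairs lay at 14.8% to 15.5%.

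The 14 loci included pairs with a large difference and pairs near balance. On the minus strand of chromosome 4, the first exon from 39316103 to 39316158 carried 78.3%, 100% and 86.0% of the signal in knockout and was listed in wild-type replicate 3 alone, at 29.9%. Its upstream partner, from 39316751 to 39317396, had 37.3 and 15.03 FPKM in knockout replicates 1 and 3 and was not listed in replicate 2, against 88.6, 71.2 and 60.9 FPKM in wild type. The 2 start sites lie 1238 bases apart, and the share did not pass (limma adjusted p = 0.174 with a mean-variance trend, 0.0587 without). At a locus on an unplaced scaffold, plus strand, the first exon from 127488 to 127741 carried 50.8%, 54.2% and 59.7% in knockout and 36.2%, 29.7% and 35.3% in wild type. It lies 22870 bases downstream of its partner, from 104618 to 104690, and both were listed in every library, so a moderate shift was enough to change the lead. It did not pass either (limma adjusted p = 0.657 with a trend, 0.14 without). The chromosome 12 first exon from 114602958 to 114603027, plus strand, likewise carried 65.9%, 57.7% and 59.4% in knockout and 41.4%, 25.2% and 36.7% in wild type (limma adjusted p = 0.563 with a trend, 0.183 without). These 3 loci were picked after their values were seen.

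The share of each first exon was then tested with limma, a linear model that pools variance information across features, over all 8260 first exons at loci with 2 or more and at least 1 FPKM in every library. Of these, 5617 were separate first exons, at 2264 loci. The absolute difference between genotypes had a median of 5.68 percentage points among them, and was 10 points or more in 1734 (30.9%), 25 or more in 514 (9.15%) and 50 or more in 71 (1.26%). For the 2425 with a mean share between 10% and 90%, the median difference was 11.1 points and the median SD of single libraries within a genotype was 14.5 points. The knockout and wild-type values did not overlap in 485 of the 5617 (8.63%), against 9.1% of all 8260. By position, the most upstream first exons averaged 53.7% of their locus, those between 20.9% and the most downstream 26.9%. The median difference was -0.36, -0.34 and 0.55 percentage points in these classes, and -0.00497 over all 5617.

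After adjustment, 1 separate first exon passed in this fit, which includes a mean-variance trend, against 0.0121% of all first exons tested. At an unadjusted p under 0.05 there were 274 (4.88%), against 433 of the 8260 (5.24%). Without the trend 38 passed at 26 loci, 20 with a higher and 18 with a lower share in knockout, against 0.63% of all first exons tested. Of these 38, 12 rose and 8 fell among the 2074 most downstream first exons tested. Another 4 rose and 9 fell among the 2061 most upstream, and 4 rose and 1 fell among the 1482 in between. First exons of 1 locus enter with complementary shares and are not independent, and 15 of the 38 were not listed in 1 genotype. Such an exon was counted as 0 there, so its p-value and those of its partners partly restate the listing. With the trend, exons with complementary shares can get different p-values, since the variance is set partly by the mean share. The summed first-exon level passed at 2 of the 26 loci. Without knockout replicate 3, no separate first exon passed with the trend and 47 passed without it.

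**Figure D3:**
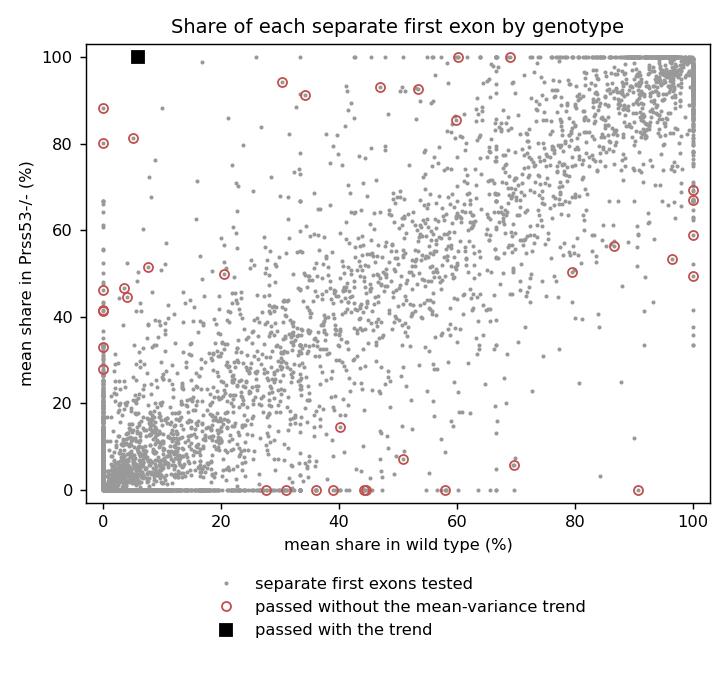
Mean share of each of the 5617 tested separate first exons in Prss53-/- and in wild type (both axes in percent of the first-exon FPKM of the locus). Circles mark first exons that passed limma without a mean-variance trend and the square, the chromosome 15 exon at 100% in Prss53-/-, the 1 that passed with and without it; most first exons lie near the diagonal, with a median absolute difference of 5.68 percentage points.

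The first exon that passed both ways was the most downstream of a plus-strand locus on chromosome 15 (ENSOCUG00000005107), 144 bases from 92289123 to 92289266. It had 201, 170 and 264 FPKM in knockout, against 4.82, 6.88 and 7.28 FPKM in wild type. Every knockout library was thus far above every wild-type library, and the level rose by 4.85 ± 0.23 on the log2(FPKM + 1) scale (SE; limma adjusted p = 0.000284). Its share difference was 94.1 ± 6.55 percentage points (SE; limma adjusted p = 0.0474 with a trend, 0.00103 without). The trended p was just under the threshold, and it was 0.0640, 0.0552 and 0.0504 without knockout replicates 1, 2 and 3 and 0.0502 without wild-type replicate 1. The first exon that led in wild type, from 92267696 to 92268129, lies 21427 bases upstream and was not listed in knockout. No other first exon of the locus was listed there, so the knockout share was 100% without spread. The p-value of the share therefore partly restates the listing. The stretch of the most downstream first exon was also an ordinary internal exon in wild type. An exon from 92289113 to 92289266, which starts 10 bases earlier and ends at the same splice site, was listed as included in wild type. It had 91.5, 105 and 85.1 FPKM there and was listed in no form in knockout. The single listed last exon had 201, 170 and 264 FPKM in knockout, against 106, 112 and 103 FPKM in wild type. These values equal the summed first-exon FPKM of the locus in each library, so they are no separate measurement. Likewise, the internal exon had the same FPKM as the upstream first exon in wild-type replicates 2 and 3. The locus as a whole was higher in each knockout library, with a log2 difference of 0.96 ± 0.19 in summed first-exon level that did not pass (limma adjusted p = 0.0899).

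On chromosome 9, minus strand, the upstream first exon from 58821159 to 58821350 was not listed in knockout and had 124, 126 and 111 FPKM in wild type, and the most downstream one, from 58804580 to 58804778, was higher in knockout. The downstream exon had 142, 121 and 122 FPKM in knockout, against 74.8, 66.6 and 70.1 FPKM in wild type, with no overlap, and rose by 0.85 ± 0.13 (log2, SE; limma adjusted p = 0.0400). The start sites lie 16572 bases apart. The summed level was lower in each knockout library (167, 121 and 138 against 223, 220 and 181 FPKM in wild type), and its log2 difference of -0.55 ± 0.18 did not pass (limma adjusted p = 0.237). The rise of the downstream exon was lost when any library was left out, with limma adjusted p between 0.0706 and 0.218.

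A locus on the plus strand of chromosome 5 (ENSOCUG00000029235) had a higher level of its downstream first exon in knockout, while its upstream one did not pass. The upstream exon, from 12927625 to 12927729, had 122, 119 and 177 FPKM in knockout, against 120, 110 and 118 FPKM in wild type (log2 difference 0.24 ± 0.19, limma adjusted p = 0.596). The downstream exon, from 12935094 to 12935191, lies 7469 bases further and had 124, 118 and 170 FPKM in knockout, against 34.1, 24.4 and 32.3 FPKM in wild type. The downstream values did not overlap, and its level rose by 2.14 ± 0.21 (log2, SE; limma adjusted p = 0.00649, and 0.0513 without wild-type replicate 3). Its share was 50.4%, 49.9% and 49.0% in knockout and 22.0%, 18.1% and 21.5% in wild type, a difference of 29.2 percentage points (limma adjusted p = 0.0287 without a trend, in which it also passed in all 6 fits that left out a library, and 0.434 with a trend). The complementary share of the upstream exon had a limma adjusted p of 0.198 with a trend. The only last exon listed for this locus, from 12928795 to 12929020, ends before the downstream first exon starts and had 90.5, 87.1 and 133 FPKM in knockout, against 93.8, 83.1 and 88.2 FPKM in wild type. These values followed the upstream first exon, and the 3' end of transcripts from the downstream one was not listed.

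The most abundant locus among those with a changed first exon level was on the minus strand of chromosome 4, with 3 first exons of similar length. Its most upstream one, from 36630446 to 36630892, had 569, 576 and 921 FPKM in knockout, against 125, 105 and 139 FPKM in wild type. It rose by 2.45 ± 0.24 (log2, SE; limma adjusted p = 0.00638, and 0.0608 and 0.0501 without wild-type replicates 1 and 2). The most downstream one, from 36579931 to 36580371, carried most of the signal in both genotypes, with 1340, 1458 and 1938 FPKM in knockout and 2320, 1418 and 1928 FPKM in wild type, and these values overlapped. The upstream share was thus 24.3%, 23.4% and 28.6% in knockout and 4.63%, 6.05% and 5.84% in wild type, without overlap, although this share difference did not pass (limma adjusted p = 0.434 with a trend, 0.0941 without). The summed level of the locus differed by a log2 of 0.25 ± 0.23 (limma adjusted p = 0.628). The listed last exons did not follow the rise of the upstream first exon. The nearest downstream of it, from 36621950 to 36622191, had 99.96, 93.4 and 131 FPKM in knockout, against 125, 95.4 and 125 FPKM in wild type, and the next, from 36603027 to 36603214, had 236, 249 and 355 FPKM in knockout, against 247, 211 and 316 FPKM in wild type. Both overlapped between genotypes, and the most downstream first exon starts beyond every last exon listed for this locus.

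**Figure D4:**
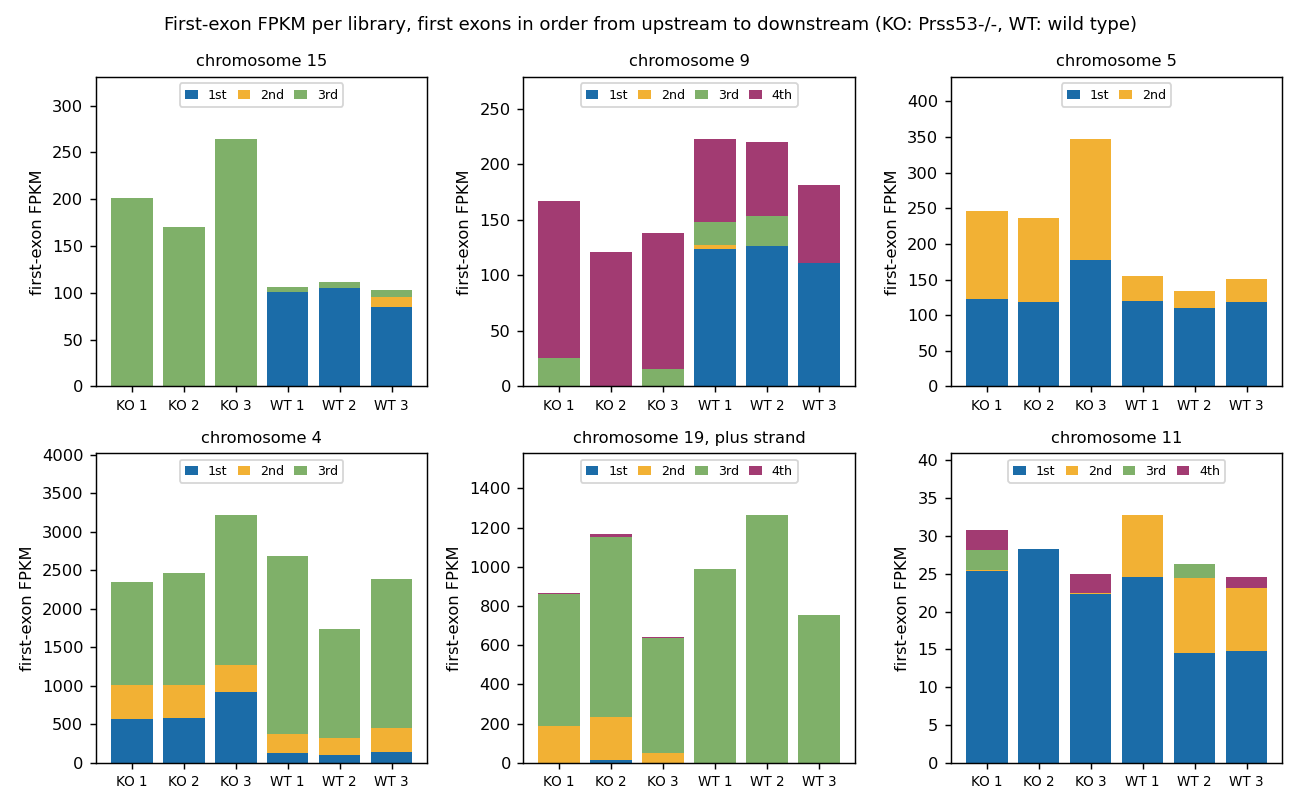
FPKM of each first exon (vertical axis, stacked) in the 3 Prss53-/- and the 3 wild-type libraries at 6 loci on chromosomes 15, 9, 5, 4, 19 and 11, each segment being a first exon. On chromosome 5 the upstream segment is near 120 FPKM in most libraries while the downstream one reaches 118 to 170 FPKM in Prss53-/- and 24.4 to 34.1 FPKM in wild type.

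Over all first exons with at least 1 FPKM in at least 3 libraries, 11142 in number, the level was tested in the same way. Of the 8228 separate first exons 3322 (40.4%) entered, and 66 of them passed, 33 higher and 33 lower in knockout (1.99%), against 1.7% of all first exons tested (0.889% higher and 0.808% lower). This was close to the background. At an unadjusted p under 0.05 there were 493 (14.8%), against 1610 of 11142 (14.4%). Among the 66, 20 were listed in knockout libraries alone, 23 in wild-type libraries alone and 14 in all 6 libraries. An exon listed in a single genotype entered through that genotype alone, with 0 for the other, so its p-value largely restates the listing. By position, 11 rose and 20 fell among the most upstream, 6 rose and 4 fell in between, and 16 rose and 9 fell among the most downstream. These were 1.85% of 1676 tested, 1.64% of 611 and 2.42% of 1035, against 1.7% of all first exons tested. Whether direction depended on position was not tested. The summed level of the locus also passed for 15 of the 66. Without knockout replicate 3, 36 passed, 5 higher and 31 lower; an exon reaching 1 FPKM in a single genotype drops out of the test when that genotype loses a library.

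The 14 that passed and were listed in every library comprised 8 that rose and 6 that fell; those named here and the first exons described next were picked after their values were seen. At another minus-strand locus of chromosome 4, the most downstream first exon, from 36449028 to 36449519, had 59.4, 51.9 and 65.9 FPKM in knockout, against 16.5, 14.0 and 25.3 FPKM in wild type, and rose by 1.65 ± 0.24 (log2, SE; limma adjusted p = 0.0301). A chromosome 18 first exon, minus strand, from 51129291 to 51129415 had 10.2, 13.4 and 8.55 FPKM in knockout, against 0.767, 2.79 and 1.21 FPKM in wild type, and rose by 2.23 ± 0.33 (limma adjusted p = 0.0321). Both were higher in every knockout library than in any wild-type library. The log2 differences of the summed levels were 1.00 ± 0.21 at the chromosome 4 locus and -0.21 ± 0.27 at the chromosome 18 locus. Neither passed (limma adjusted p = 0.105 and 0.736). With a library left out, the chromosome 4 exon passed only without wild-type replicate 3 (limma adjusted p = 0.0367, otherwise up to 0.176), and the chromosome 18 exon only without wild-type replicate 2 (0.0388, otherwise up to 0.165).

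Of the 6 that fell, the first exon with the greatest drop was an intermediate one. On the plus strand of chromosome 11 (ENSOCUG00000005116) the first exon from 84366439 to 84367156 had 0.135, 0.0890 and 0.0844 FPKM in knockout, against 8.12, 9.89 and 8.34 FPKM in wild type, and fell by 3.14 on the log2(FPKM + 1) scale (SE 0.18; limma adjusted p = 0.000651, and 0.00543 to 0.00649 in the 3 fits that left out a knockout library and could test it). The wild-type values were all above the knockout ones. This exon entered the test through its wild-type libraries alone, so no fit without a wild-type library could test it. The fits with a library left out therefore do not probe the spread of the higher genotype. The leading first exon of that locus, 11408 bases upstream, from 84355031 to 84355857, had 25.4, 28.2 and 22.3 FPKM in knockout and 24.6, 14.6 and 14.7 FPKM in wild type, and the summed level differed by a log2 of 0.01 ± 0.17. At a minus-strand locus of chromosome 12 (ENSOCUG00000008469) the summed level fell too. Its upstream first exon, from 122643538 to 122644391, had 5.46, 3.56 and 5.74 FPKM in knockout, against 28.0, 23.2 and 23.4 FPKM in wild type (log2 difference -2.14 ± 0.20, limma adjusted p = 0.00582, and 0.0588 and 0.0513 without wild-type replicates 1 and 3). The summed level fell by 1.73 (log2; limma adjusted p = 0.00934).

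The other falls named were smaller. A minus-strand first exon of chromosome 9, from 77370273 to 77370927, had 30.5, 28.8 and 35.6 FPKM in knockout, against 56.8, 58.7 and 55.3 FPKM in wild type (log2 difference -0.83 ± 0.14, limma adjusted p = 0.0465). On the plus strand of chromosome 4, the first exon from 34260126 to 34260299 had 35.9, 46.8 and 38.3 FPKM in knockout, against 79.0, 98.1 and 76.4 FPKM in wild type (log2 difference -1.05 ± 0.17, limma adjusted p = 0.0456). Neither pair of groups overlapped. The summed level of the chromosome 9 locus had a similar log2 difference of -0.75 ± 0.13, which did not pass (limma adjusted p = 0.0574). Its last exon had 37.8, 34.0 and 37.9 FPKM in knockout, against 60.8, 63.6 and 61.8 FPKM in wild type. These values match the summed first-exon FPKM of the locus, so they restate the summed level and are no separate measurement. For the chromosome 4 locus the summed difference was -0.42 ± 0.17 (limma adjusted p = 0.324). The chromosome 9 exon led its locus in both genotypes (86.4% and 91.8% in knockout and wild type), whereas the chromosome 4 exon carried 41.9% ± 5.14 in knockout, against 65.3% ± 5.78 in wild type (SD, n = 3 each), a share difference that did not pass (limma adjusted p = 0.571 with a trend, 0.182 without). The calls of level were close to the threshold. When a library was left out, the chromosome 9 exon passed only without knockout replicate 3 (limma adjusted p = 0.0340, otherwise up to 0.251), and the chromosome 4 exon in none of the fits (0.0935 to 0.202).

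**Figure D5:**
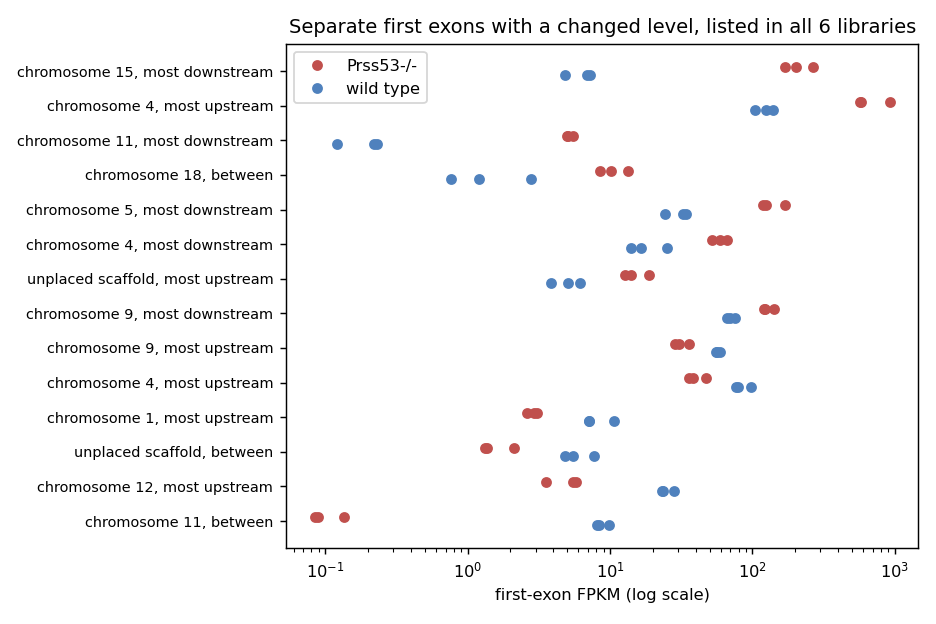
FPKM (horizontal log axis) of the 14 separate first exons that passed the test of level and were listed in all 6 libraries, with the 3 Prss53-/- libraries above the 3 wild-type libraries for each. Points are libraries; 8 first exons were higher and 6 lower in Prss53-/-.

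A region of chromosome 19 had strong first exons listed in 1 genotype alone on both strands, under the same Ensembl ID. On the plus strand the first exon from 9025830 to 9025942 had 186, 218 and 47.1 FPKM in knockout and was not listed in wild type (limma adjusted p = 0.00327). The leading first exon of that locus, 27796 bases downstream, from 9053626 to 9054013, had 675, 920 and 590 FPKM in knockout and 991, 1263 and 753 FPKM in wild type, with overlapping values. The knockout-only exon carried 7.35% to 21.5% of the knockout signal, lowest in replicate 3. On the minus strand the first exon from 9231603 to 9231694 was not listed in knockout and had 107, 223 and 107 FPKM in wild type (limma adjusted p = 0.000213). This exon and the knockout-only exon entered the test through a single genotype, so their p-values add little to the listing itself. Another first exon of that locus, from 9231506 to 9231553, whose start site lies 141 bases downstream, was listed in knockout replicate 3 alone, at 26.2 FPKM. The last exon of that minus-strand locus, from 9043409 to 9043586, was not listed in knockout either and had 152, 189 and 80.8 FPKM in wild type. The 2 loci overlap on opposite strands, and since strand use is not given, their signals cannot be told apart.

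Lower in level, a first exon on chromosome 11 rose at a locus whose summed level did not pass (log2 difference 0.92 ± 0.17, limma adjusted p = 0.0644). On the plus strand of chromosome 11 the first exon from 64054339 to 64055314 had 4.95, 5.05 and 5.51 FPKM in knockout, against 0.220, 0.121 and 0.229 FPKM in wild type, without overlap, and rose by 2.37 ± 0.18 (log2, SE; limma adjusted p = 0.00251). This exon entered the test of level through its knockout libraries alone, so no fit without a knockout library could test it. That p-value adds little to its reaching 1 FPKM in knockout alone. Its share was 46.6% ± 6.14 in knockout, against 3.57% ± 1.28 in wild type (SD, n = 3 each; limma adjusted p = 0.198 with a trend, 0.0287 without, and with a library left out passing only without knockout replicates 2 and 3 at 0.0084 and 0.0474, and otherwise up to 0.0778). It lies 51144 bases downstream of the other first exon, from 64003195 to 64003655, which had 6.42, 4.37 and 7.44 FPKM in knockout and 5.13, 5.65 and 4.88 FPKM in wild type. The same span was also listed as an internal exon of this locus, included at 2.38, 1.34 and 3.56 FPKM in knockout and, in wild-type replicates 1 and 2, at 0.757 and 0.826 FPKM.

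Among loci on unplaced scaffolds, shifts of share at the next 2 passed without a trend in all 6 fits that left out a library. At the plus-strand locus with first exons from 624088 to 624290 and, 5764 bases further, from 629852 to 629909, the upstream exon carried 88.0%, 84.9% and 83.7% in knockout, against 60.2%, 59.3% and 60.1% in wild type (limma adjusted p = 0.0361 without a trend, 0.198 with). The knockout values of the upstream exon were all above the wild-type ones. The complementary share of the downstream exon had a limma adjusted p of 0.521 with a trend. At the plus-strand locus with first exons from 1712474 to 1712709 and, 7214 bases further, from 1719688 to 1720189, the downstream exon was not listed in knockout, and the upstream one carried 100% in each knockout library, against 68.5%, 68.7% and 69.6% in wild type (limma adjusted p = 0.0257 without a trend, 0.142 with). The missing exon was counted as 0, so this p-value and the passes with a library left out largely restate the listing. The summed levels did not pass at either, with log2 differences of -0.19 ± 0.29 and 0.45 ± 0.24.

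In the fit without a trend, a share also rose where the levels of that first exon overlapped between genotypes and the summed level of the locus fell. At this plus-strand locus on an unplaced scaffold, the first exon from 2468148 to 2468243 had 2.37, 1.82 and 2.99 FPKM in knockout and 3.28, 1.48 and 0.583 FPKM in wild type, with overlapping values. Its share was 79.8%, 82.9% and 81.1% in knockout, against 9.68%, 3.93% and 1.61% in wild type (limma adjusted p = 0.0038 without a trend, 0.105 with). The summed level of the locus was 2.97, 2.20 and 3.69 FPKM in knockout, against 33.9, 37.7 and 36.3 FPKM in wild type, and fell by 3.24 (log2; limma adjusted p = 0.000581). The single listed last exon, from 2552635 to 2553024, did not follow this fall: among knockout libraries only replicate 1 listed it, at 6.87 FPKM, and among wild-type libraries replicate 2 listed 8.03 FPKM and replicate 3 listed 1.20 FPKM. The first exons that led in wild type, from 2520801 to 2521256 in replicates 1 and 2 and from 2522526 to 2522748 in replicate 3, were not listed in knockout.

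Both first exons were in regular use at some loci. At 107 of the 1108 loci with exactly 2 separate first exons (9.66%), each carried at least 20% in every library. Among the 6 most abundant of these the start sites lay 9243 to 97652 bases apart. A chromosome 2 locus on the minus strand had the first exons from 131708892 to 131709126 and, 97652 bases downstream, from 131610169 to 131611474, with 62.9% ± 4.35 upstream in knockout, against 59.8% ± 1.70 in wild type (SD, n = 3 each). At a chromosome 4 locus, minus strand, the exons from 33459458 to 33459528 and, 31824 bases downstream, from 33427601 to 33427704 had 41.6% ± 4.44 upstream in knockout and 43.1% ± 2.92 in wild type. Shares overlapped between genotypes at both. At another minus-strand locus of chromosome 4, with exons from 2980608 to 2980620 and from 2890394 to 2890512, 90108 bases apart, the upstream share was 72.003%, 74.5% and 71.4% in knockout, against 79.2%, 78.5% and 77.6% in wild type. These shares did not overlap, and the difference of -5.79 percentage points did not pass (limma adjusted p = 0.657 with a trend, 0.705 without).

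The other steady pairs were on unplaced scaffolds, and at 1 of them both first exons lay higher in every knockout library, with differences that did not pass (limma adjusted p = 0.0800 and 0.142). There, the exons from 2451119 to 2451280 and, 49492 bases downstream, from 2500611 to 2500768 had 98.3, 87.6 and 130 FPKM upstream in knockout, against 50.7, 45.4 and 58.7 FPKM in wild type. Downstream they had 94.2, 56.2 and 84.0 FPKM in knockout, against 44.3, 38.1 and 36.4 FPKM in wild type. Neither exon overlapped between genotypes, yet the upstream share was 57.6% ± 5.66 in knockout, against 56.5% ± 4.53 in wild type (SD, n = 3 each). The log2 difference of the summed level, 0.98 ± 0.19, did not pass (limma adjusted p = 0.0777). At the remaining pairs, from 81911 and 92936 and from 364351 and 355376, the upstream share averaged 68.0% and 48.2% in knockout, against 71.3% and 55.5% in wild type, with overlapping values.

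The most distant neighbours at loci of at least 5 FPKM were 506167 bases apart, on the plus strand of chromosome 18, between the first exon from 60092727 to 60093420 and the one from 60598894 to 60599027. The exon from 60092727 was listed in wild-type replicate 3 alone, at 0.00223 FPKM, and the signal of the locus lay in the exons on either side of it, both listed in every library. The first exon from 60091205 to 60091517 carried 41.0% ± 7.10 in knockout and 42.1% ± 2.69 in wild type, and the one from 60598894 to 60599027 carried 59.0% ± 7.10 in knockout, against 57.9% ± 2.69 in wild type (SD, n = 3 each). The next most distant pairs also included exons listed in few libraries. On the plus strand of chromosome 12, 402284 bases separate the exon from 147077022 to 147077408 and the next, from 147479306 to 147481959, which was listed in wild-type replicate 2 alone, at 0.863 FPKM. Likewise on the minus strand of chromosome 13, 386925 bases separate the exon from 104782239 to 104782481 and the one from 104395364 to 104395556, listed in knockout replicate 3 and wild-type replicate 2 alone, at 0.857 and 4.55 FPKM.

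Loci with the most separate first exons held many that were listed in few libraries. A plus-strand locus of chromosome 1 had 11 separate of 13 first exons, from 78304816 on, with 2 of the 13 listed in all 6 libraries and 8 in a single library. The leading one, from 78351794 to 78351869, carried 91.2%, 49.3% and 84.9% in knockout and 51.1%, 39.1% and 31.3% in wild type, and these values overlapped. The other 2 loci, on the minus strand of chromosome 15 and the plus strand of an unplaced scaffold, had 10 separate first exons each, and none of these was listed in all 6 libraries.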

How the data were processed

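Total RNA of rabbit (Oryctolagus cuniculus) skin was sequenced after Trizol extraction and NEBNext Ultra library preparation, per the labels' protocols. Reads were handled with cutadapt and bcl2fastq 2.17.1.14, per the submitters' processing notes. For the aligner, assembler, event caller, annotation and build, names were not given in the sources used here. Per the file headers, each library's table gives transcript events with the FPKM the authors deposited; no counts were used.

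First exons of a locus were matched between libraries by event ID and ordered by strand, the start site being the outer end. Missing events entered as 0. For shares, limma 3.58.1 was run in R 4.3.3 (genotype as the only term, mean-variance trend, two-sided, Benjamini-Hochberg adjustment at 0.05) at loci with at least 1 FPKM in every library. Levels were tested on log2(FPKM + 1), which understates the change of low first exons, with at least 1 FPKM in at least 3 libraries. Values with 1 number per library were compared by exact tests with scipy 1.17.1. All adjustments of limma cover every first exon tested.

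The fit of shares and the fit of levels were tested on simulated data. No separate simulation was made for the share fit without a trend, so the rates given here do not cover its calls. For shares (8260 first exons), 10% of differences of 25 percentage points and 47% of differences of 50 were recovered, and 9.52% of calls were false. For levels (11142 first exons), 22% of changes of 1 log2 unit and 69% of changes of 2 were recovered, and 8.08% of calls were false. These rates describe the simulated data only. In the real data the shares of a locus are tied to each other, and many first exons were not listed in some libraries. Whether the simulated data reproduced these features was not tested, so the rates may not hold for the real fits.

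The members and lists were chosen with earlier results of these data known. Named by rule were the first exons that passed the test of share, the 6 most abundant loci of 2 first exons with at least 20% each in every library, and, at 5 FPKM or more, the 3 loci with the greatest neighbour distance and the 3 with the most separate first exons. Other first exons named were chosen after their values were seen, as was leaving out libraries in the fit without a trend. Alternatives changed the minimum, pseudocount, filter, scale of the share, weights, trend, block, normalization and libraries. Replicate numbers are the same in both genotypes, but the labels state no pairing. No sequence is shown, because no genome or sequence table was used here.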

Additional observations from a re-analysis of the deposited data

How the results depend on the processing

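The share of single first exons depended on the processing most. Against 1 separate first exon with a changed share, 7 passed with a minimum of 5 FPKM, 4 with no minimum, 4 with arcsine shares, 4 with first and last exons adjusted together, 3 with only first exons listed in all 6 libraries, 0 with the replicate block and 38 without a trend. Leaving out a library gave 0 to 5, and 31 to 51 without a trend (48 and 47 without knockout replicates 2 and 3, 38 and 42 without wild-type replicates 1 and 2). Against 66 with a changed level, 35 passed with no filter, 9 with only those listed in all 6 libraries, 19 with the replicate block and 15 to 36 when a library was left out: 3 to 5 higher and 25 to 31 lower without a knockout library, 14 to 17 higher and 1 lower without a wild-type library. The difference in mean upstream share, -0.0208, was 0.0271 with a minimum of 5 FPKM, 0.283 without knockout replicate 1 and 0.173 without wild-type replicate 2, with a range of -0.365 to 0.283 (exact permutation p of 0.4 to 1.0), and p = 1.0 with the replicate block. The difference in first exons listed per locus, -0.0168, was 0.00843 with a minimum of 5 FPKM, -0.0338 to -0.00449 with a library left out, and its p was 0.5 with the block (exact). The leading first exon differed at 105 loci with a minimum of 5 FPKM, 14 with agreement within genotypes and 249 to 261 with a library left out. Same-numbered libraries correlated at -0.0207 to 0.0705 in their deviations, and differently numbered ones at -0.0908 to 0.0377. The same-numbered values lay under the cut-off of 0.1 set for a pairing. With 3 libraries per genotype, this does not exclude a pairing. Of 571 alternatives run on single named first exons, 416 kept their side of the threshold, 52 lost it, 103 gained it and 0 reversed. The level filter stayed at 3 libraries when a library was left out. An exon reaching 1 FPKM in a single genotype therefore left the test when that genotype lost a library. Apart from this, the cause of these changes was not tested. Depth is unknown, so its limits are too.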
